A study of Mus musculus with 4 samples.

Results

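The sodium-potassium pump genes described here are 3 genes of its beta subunits (Atp1b1, Atp1b2 and Atp1b3) and 4 genes of its FXYD regulators (Fxyd1, Fxyd3, Fxyd5 and Fxyd6). They were chosen by gene symbol and make up 7 of the 46603 genes in the deposited table. Messenger RNA came from heart ventricles of C57Bl6/J mice, 8 to 12 weeks old, all of which had received daily intraperitoneal injections for 7 days. The P2Y6-null groups (KO), which lack a receptor for the nucleotide UDP, were given isoproterenol at 50 mg/kg/day (KO isoproterenol) or saline (KO saline). The wild-type groups (WT) were given the same dose of isoproterenol (WT isoproterenol) or saline (WT saline). Isoproterenol activates beta-adrenergic receptors and serves to induce hypertrophy of the heart in mice. Each of the 4 groups held 1 library, and the labels do not say whether a library holds 1 heart or several, how the null allele was made, or the sex of the mice.

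The sodium-potassium pump is a membrane ATPase that carries sodium out of the cell and potassium in, and in heart muscle the sodium gradient it builds drives the sodium-calcium exchanger. Its catalytic alpha subunit needs a beta subunit, a glycoprotein that folds it and brings it to the membrane. FXYD proteins are small single-span membrane proteins, named for a short stretch of amino acids that they share, which bind the pump and set its affinity for ions. Stimulation of beta-adrenergic receptors raises cAMP and, through protein kinase A, phosphorylates the cardiac FXYD protein phospholemman, which relieves its inhibition of the pump.

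The sequence that defines the FXYD group is shown for its 4 members, because the later results separate genes that carry the same signature. Each run is 75 bases of coding sequence on the gene's own strand, from the principal transcript of GENCODE M21 on GRCm38. The capitals mark the codons of the FXYD signature together with the proline codon before it. Each window is split by an intron, and the coordinates are those of its outer bases.
Fxyd1: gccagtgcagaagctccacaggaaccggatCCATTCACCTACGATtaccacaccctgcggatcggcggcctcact
Fxyd3: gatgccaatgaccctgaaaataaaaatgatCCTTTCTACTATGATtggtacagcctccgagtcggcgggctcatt
Fxyd5: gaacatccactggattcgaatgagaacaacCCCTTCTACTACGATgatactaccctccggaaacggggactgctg
Fxyd6: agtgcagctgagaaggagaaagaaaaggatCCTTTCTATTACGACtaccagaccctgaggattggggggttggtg
The windows lie at chr7:31053443-31054315 for Fxyd1, chr7:31071335-31072199 for Fxyd3 and chr7:31035252-31036448 for Fxyd5, all on the minus strand, and at chr9:45390044-45390808 on the plus strand for Fxyd6. Identity between pairs of windows, aligned on the signature, ranged from 48% (36 of 75 bases, Fxyd3 and Fxyd5) to 58.7% (44 of 75 bases, Fxyd1 with Fxyd3 and Fxyd3 with Fxyd6). On the strand of the transcripts, no stretch of 50 bases of the 4 FXYD genes was found in another gene, apart from a microRNA that lies inside Fxyd5 and had 0 reads. The opposite strand was not searched, and there the exons of Fxyd3 share 2059 bases with those of Lgi4. Among the beta genes, 9.71% of the 50-base stretches of Atp1b3 also occur in the pseudogene Gm1848, which held between 0 and 2 reads per library.

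The libraries held between 18771198 (KO isoproterenol) and 25637369 reads (WT saline) in the listed genes. Levels are given in deposited CPM, a gene's reads per 1000000 reads of the library. The isoproterenol libraries lay at opposite ends in composition. Mitochondrial transcripts took 22.5% of reads in KO isoproterenol and 28.9% in WT isoproterenol, against 26.3% in KO saline and 24.9% in WT saline. The 10 most abundant genes took 26.5% in KO isoproterenol and 33.2% in WT isoproterenol, against 31.2% in KO saline and 29.9% in WT saline. The part of this in the results was not tested. P2ry6, the targeted gene, was at 0.533 CPM in KO isoproterenol and 0.566 CPM in KO saline, against 5.89 CPM in WT isoproterenol and 5.11 CPM in WT saline. A list of 8 cardiomyocyte markers summed to between 58402 and 70547 CPM, so the muscle cells of the labelled tissue were well represented. Ratios between libraries were scaled by TMM, which sets the bulk of genes to no change, and carry a 95% counting interval. Genes were called higher or lower if no point of the interval fell within 1.5-fold, and 14301 genes that averaged 10 reads or more were tested. No group has a replicate, so these intervals compare libraries and cover counting error only. In whole ventricles, fewer cells of a type and less RNA per cell cannot be told apart.

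Fxyd5 and Fxyd6 were the members that stood apart, and they did so in the KO isoproterenol library. Fxyd5 encodes dysadherin, an FXYD protein of epithelia and many other cells that modulates the pump and weakens cell adhesion. It was measured at 54.6 CPM (1025 reads) in KO isoproterenol and 15.3 CPM (351 reads) in KO saline, against 22 CPM (455 reads) in WT isoproterenol and 16.7 CPM (427 reads) in WT saline. KO isoproterenol was the highest library, WT isoproterenol came next, and the saline libraries were lowest and near each other. The ratio was 3.15-fold (2.79 to 3.56) for KO isoproterenol over KO saline and 1.39-fold (1.22 to 1.59) for WT isoproterenol over WT saline. Between genotypes it was 2.14-fold (1.92 to 2.4) for KO isoproterenol over WT isoproterenol, and 0.95 (0.822 to 1.1) for KO saline over WT saline.

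Fxyd6 encodes phosphohippolin, an FXYD regulator known mainly from brain and inner ear. Its level was 91.5 CPM (1717 reads) in KO isoproterenol and 28 CPM (642 reads) in KO saline, against 39.2 CPM (813 reads) in WT isoproterenol and 31 CPM (794 reads) in WT saline. The order of the libraries was that of Fxyd5. KO isoproterenol exceeded KO saline by 2.88-fold (2.63 to 3.16), and WT isoproterenol exceeded WT saline by 1.34-fold (1.21 to 1.48). KO isoproterenol exceeded WT isoproterenol by 2.01-fold (1.85 to 2.19), while the ratio of KO saline to WT saline was 0.934 (0.84 to 1.04).

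The 2 genes kept nearly the same proportion to each other in every library. Fxyd6 had 1.68 reads (1.55 to 1.81) for each read of Fxyd5 in KO isoproterenol and 1.83 (1.6 to 2.09) in KO saline. In the wild type it had 1.79 (1.59 to 2.01) with isoproterenol and 1.86 (1.65 to 2.1) with saline, and all 4 counting intervals overlap. The genes lie on different chromosomes, Fxyd5 at chr7:31032722-31042481 on the minus strand and Fxyd6 at chr9:45370185-45396159 on the plus strand (GRCm38).

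**Figure D1:**
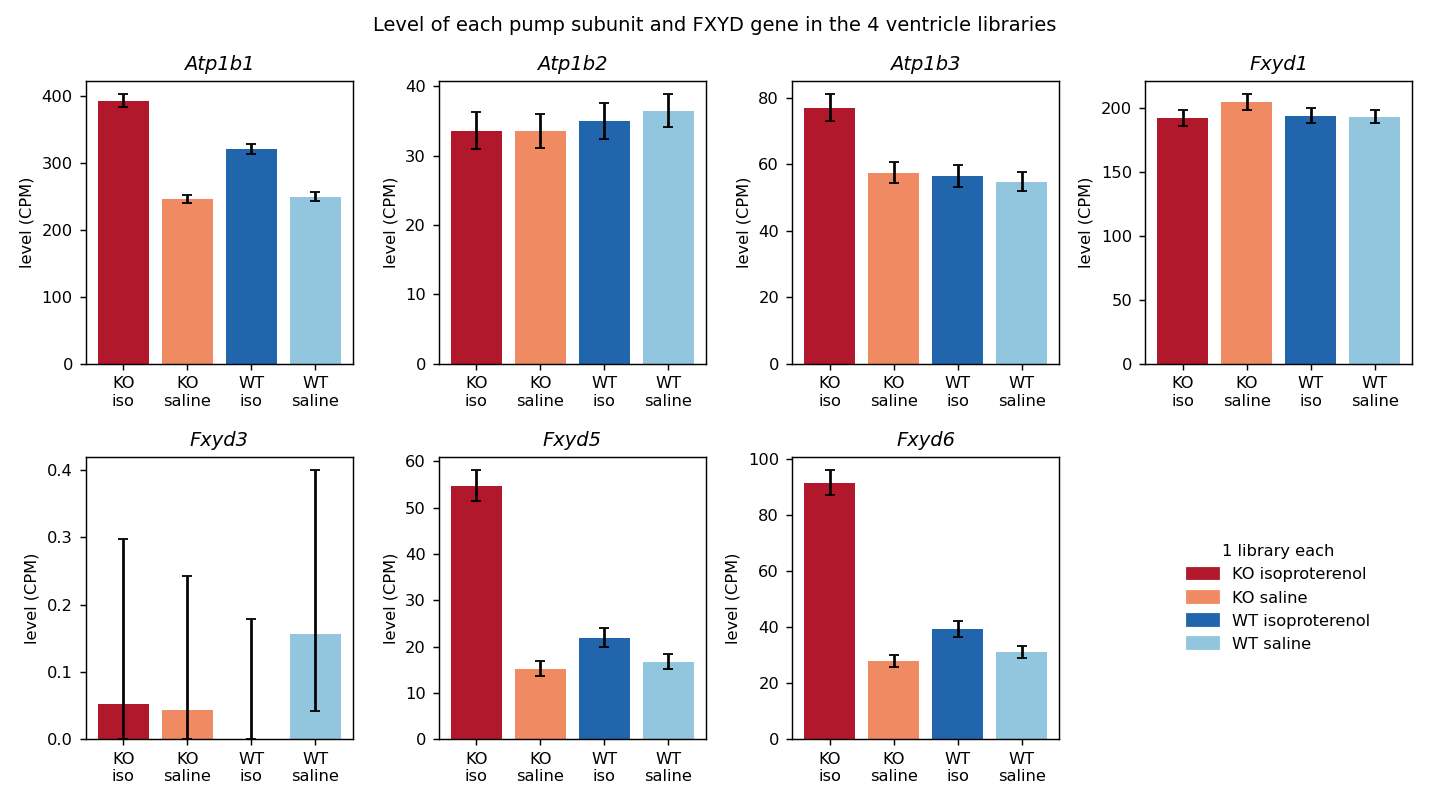
Level of each member in CPM (linear axis, own scale per panel) in the KO isoproterenol, KO saline, WT isoproterenol and WT saline libraries, 1 library each. Error bars are 95% counting intervals. Fxyd5 and Fxyd6 reach 54.6 and 91.5 CPM in KO isoproterenol, and in the other libraries they stay at or below 22 and 39.2 CPM.

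Fxyd1 encodes phospholemman, the FXYD regulator of heart muscle and a main target of protein kinase A at the membrane. It was at 192 CPM in KO isoproterenol and 204 CPM in KO saline, against 194 CPM in WT isoproterenol and 193 CPM in WT saline, which makes it the member with the narrowest relative range of CPM among the 6 tested. After TMM scaling the ratio of KO isoproterenol to KO saline was 0.829 (0.793 to 0.866) and that of WT isoproterenol to WT saline was 1.06 (1.02 to 1.11). KO isoproterenol over WT isoproterenol gave 0.857 (0.819 to 0.896) and KO saline over WT saline gave 1.1 (1.05 to 1.14). None of these passed the 1.5-fold rule. With total counts in place of TMM the log2 ratio was -0.09 in the KO pair and 0.00 (-0.06 to 0.06) in the WT pair, so the direction in the WT pair depended on the scaling.

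Fxyd3, an FXYD gene of epithelia first described in breast tumours, was at the limit of detection. It had 1 read in KO isoproterenol and 1 read in KO saline, against 0 reads in WT isoproterenol and 4 reads in WT saline. A count of 0 in the WT isoproterenol library allows up to 0.145 CPM, so no difference was detectable at this depth and the gene was not tested. Its annotated exons share 2059 bases with Lgi4 on the opposite strand, which was at 2.15 to 2.75 CPM, and the strand setting of the authors' counting is not given in the sources used here.

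Fxyd5, Fxyd1 and Fxyd3 lie close together on chromosome 7, all on the minus strand. Fxyd7, an FXYD gene known mainly from brain, lies between Fxyd5 and Fxyd1 on the same strand, 32 bases from the one and 211 bases from the other. It had 12 reads in KO isoproterenol and 16 in KO saline, against 24 in WT isoproterenol and 17 in WT saline. Within this cluster, Fxyd5 was called in KO isoproterenol and Fxyd7 and Fxyd1 were not. Beside Fxyd6 on chromosome 9 lies Fxyd2, the FXYD gene best known from kidney, 3510 bases away, with 24 reads in KO isoproterenol and 24 in KO saline, against 27 in WT isoproterenol and 31 in WT saline. The chromosome 7 cluster is 69.9 Mb from the targeted P2ry6 on the same chromosome.

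Promoters are shown for the pair of genes that were called, for phospholemman and for the main beta gene, so that they can be read beside the levels. Each run holds 250 bases before and 50 bases after the RefSeq start on GRCm38.p6, 5′ to 3′ on the gene's strand. Capitals mark every match, on either strand, to GGGCGG of the GC box, CCAAT of the box of that name, TATAAA of the TATA box, TGANTCA of the AP-1 element, TGACGTCA of the cAMP response element, CACGTG of the E-box, CATTCC of the MCAT element and AGATAA of the GATA element. No matches overlap in the windows shown.
Fxyd5 promoter: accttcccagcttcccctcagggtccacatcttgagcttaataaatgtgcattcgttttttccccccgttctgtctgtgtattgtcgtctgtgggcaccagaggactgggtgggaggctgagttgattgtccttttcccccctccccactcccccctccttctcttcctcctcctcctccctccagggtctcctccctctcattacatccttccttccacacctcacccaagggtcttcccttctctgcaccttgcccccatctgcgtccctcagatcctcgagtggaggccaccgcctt
Fxyd6 promoter: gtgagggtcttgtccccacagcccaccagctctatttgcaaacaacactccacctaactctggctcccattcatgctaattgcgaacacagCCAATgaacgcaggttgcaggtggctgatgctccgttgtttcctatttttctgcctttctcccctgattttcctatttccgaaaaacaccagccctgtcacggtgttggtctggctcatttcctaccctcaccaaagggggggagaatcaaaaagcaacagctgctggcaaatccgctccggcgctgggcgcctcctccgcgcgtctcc
Fxyd1 promoter: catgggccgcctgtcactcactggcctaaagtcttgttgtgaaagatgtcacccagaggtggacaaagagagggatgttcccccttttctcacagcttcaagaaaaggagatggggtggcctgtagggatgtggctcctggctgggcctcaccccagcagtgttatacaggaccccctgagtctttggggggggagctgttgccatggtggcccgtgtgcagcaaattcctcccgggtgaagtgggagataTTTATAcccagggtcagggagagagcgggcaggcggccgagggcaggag
Atp1b1 promoter: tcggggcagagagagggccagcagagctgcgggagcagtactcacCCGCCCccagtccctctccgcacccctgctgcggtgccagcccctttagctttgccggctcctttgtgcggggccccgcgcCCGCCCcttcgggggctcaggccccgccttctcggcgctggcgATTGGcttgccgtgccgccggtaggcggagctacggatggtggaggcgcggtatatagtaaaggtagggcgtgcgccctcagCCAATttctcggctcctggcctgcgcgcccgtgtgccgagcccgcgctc
These are chr7:31042282-31042581 (minus strand) for Fxyd5, chr9:45369935-45370234 (plus strand) for Fxyd6, chr7:31054804-31055103 (minus strand) for Fxyd1 and chr1:164458306-164458605 (minus strand) for Atp1b1. The Fxyd5 window held none of the 8 motifs and the Fxyd6 window held 1 CCAAT box. The Fxyd1 window held 1 match to the letters of the TATA box. This match reads on the opposite strand and lies within the 50 bases after the start. The Atp1b1 window held 2 GC boxes and 2 CCAAT boxes. Among all 32851 RefSeq promoter windows of this length, 35.7% held the GC box, 37.4% the CCAAT box and 13.6% the TATA box. None of the 4 windows held the cAMP response element, which 1.79% of all windows held, or the AP-1 element, which 7.81% held. The G and C content was 57.3% for Fxyd5, 54.3% for Fxyd6, 58.7% for Fxyd1 and 71% for Atp1b1, against a median of 52.7% over all windows. Sequence was matched for 6 of the 7 members.

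Atp1b1, the beta subunit that predominates in heart muscle, was higher in both isoproterenol libraries, by about the same ratio. It was at 393 CPM (7372 reads) in KO isoproterenol and 246 CPM (5642 reads) in KO saline, against 321 CPM (6642 reads) in WT isoproterenol and 249 CPM (6394 reads) in WT saline. Both isoproterenol libraries lay above both saline libraries. KO isoproterenol exceeded KO saline by 1.41-fold (1.36 to 1.46) and WT isoproterenol exceeded WT saline by 1.36-fold (1.31 to 1.41), both short of the 1.5-fold rule. The responses differed by 0.05 on the log2 scale (-0.02 to 0.12, KO minus WT). With total-count scaling the log2 ratio in the KO pair was 0.68 (0.63 to 0.73), past the rule, and the difference of responses was 0.31 (0.24 to 0.39). Exons of Atp1b1 (chr1:164437109-164458355, minus strand) share 575 bases with Nme7 on the opposite strand, which had 3.04 to 4 CPM.

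Atp1b3, a widely expressed beta subunit at chr9:96332655-96364442, had 76.9 CPM in KO isoproterenol and 57.4 CPM in KO saline, against 56.4 CPM in WT isoproterenol and 54.8 CPM in WT saline. KO isoproterenol was the highest library and the other 3 were close together. Its ratios were 1.18 (1.09 to 1.27) for KO isoproterenol over KO saline and 1.09 (1.01 to 1.18) for WT isoproterenol over WT saline. Atp1b2, the beta subunit of glia and neurons that also acts in cell adhesion, lies at chr11:69599736-69605942. It had 33.5 CPM in KO isoproterenol and 33.5 CPM in KO saline, against 34.9 CPM in WT isoproterenol and 36.4 CPM in WT saline. Its ratio was 0.882 (0.792 to 0.981) for KO isoproterenol over KO saline, which total-count scaling moved to a log2 ratio of 0.00 (-0.15 to 0.15), and 1.01 (0.919 to 1.12) for WT isoproterenol over WT saline.

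**Figure D2:**
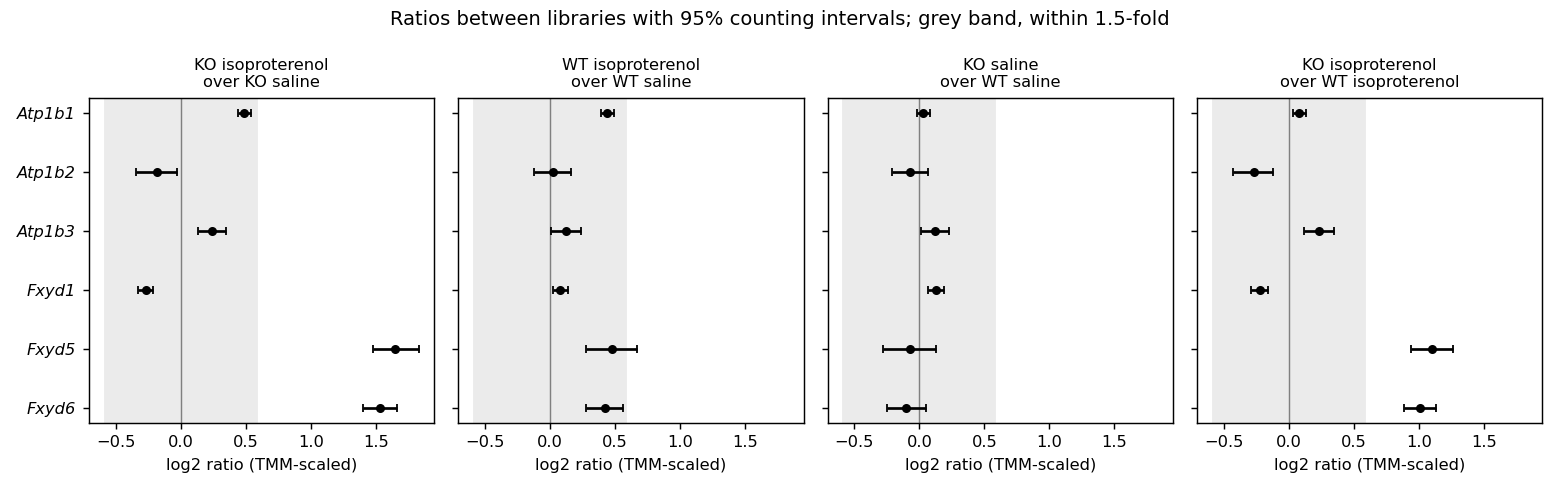
TMM-scaled log2 ratios of the 6 members tested, with 95% counting intervals, for KO isoproterenol over KO saline, WT isoproterenol over WT saline, KO saline over WT saline and KO isoproterenol over WT isoproterenol. The grey band covers ratios within 1.5-fold. Fxyd5 and Fxyd6 lie wholly beyond the band in the first and last panels, and no member does in the other panels.

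Counted over the family, 6 of the 7 members passed the filter on low reads. In KO isoproterenol against KO saline, 2 of the 6 were called higher (Fxyd5 and Fxyd6) and 0 lower, beside 7.09% of all tested genes higher and 4.22% lower. In WT isoproterenol against WT saline, 0 of the 6 were called, beside 0.86% of tested genes higher and 0.797% lower. KO saline against WT saline also gave 0 of the 6, beside 0.273% higher and 0.217% lower. In KO isoproterenol against WT isoproterenol, the same 2 genes were called higher and 0 lower, beside 4.2% higher and 1.8% lower. The median log2 ratio of the 6 was 0.37 in the KO pair, 0.27 in the WT pair, -0.02 between the saline libraries and 0.16 between the isoproterenol libraries, beside medians of 0.00 over all tested genes. The comparisons share libraries, so these counts are not independent of each other. With total counts in place of TMM, the median gene shifted by 0.18 in the KO pair, -0.08 in the WT pair and 0.21 between the isoproterenol libraries (log2). The genes called higher then made up 80.2% of calls in place of 62.7% in the KO pair, 40.6% in place of 51.9% in the WT pair, and 90.3% in place of 69.9% between the isoproterenol libraries.

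The design also asks whether the response to isoproterenol differs between KO and WT. For Fxyd5 the log2 response was larger in KO by 1.18 (0.92 to 1.43) and for Fxyd6 by 1.11 (0.91 to 1.30), counting error only. These 2 of the 6 members were called higher and 0 lower, beside 3.83% of tested genes higher and 1.73% lower. With total counts the median gene shifted by 0.26 and the share of calls that were higher was 92.6% in place of 68.8%, and the responses of Fxyd5 and Fxyd6 then differed by 1.44 and 1.37. For Fxyd1 the difference was -0.35 (-0.44 to -0.27) and for Atp1b2 -0.20 (-0.41 to 0.00), while Atp1b3 differed by 0.12 (-0.04 to 0.27). With 1 library per group the difference of responses has no error term and was not tested. If the whole interval had to lie beyond 2-fold, Fxyd5 and Fxyd6 would keep the call in KO isoproterenol against KO saline and lose it for the difference and for KO isoproterenol against WT isoproterenol.

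**Figure D3:**
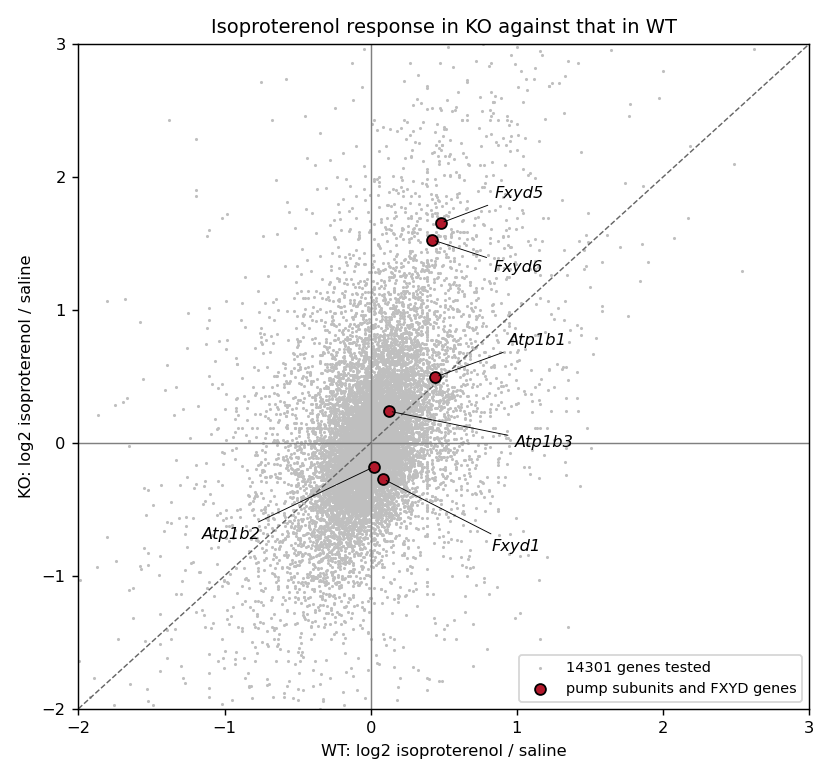
Log2 ratio of isoproterenol over saline in KO (vertical axis) against that in WT (horizontal axis) for the 14301 tested genes, with the 6 members in red. The dashed line marks equal responses, and 183 genes lie outside the axes. Fxyd5 and Fxyd6 lie above the line, Atp1b1 close to it and Fxyd1 below it.

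An additive fit of treatment and genotype over the 4 libraries (limma with a trend on log2(CPM + 1), Benjamini-Hochberg over 14301 genes) leaves 1 residual degree of freedom per gene. That residual is the difference of responses between KO and WT, not a spread between replicates, so the p-values do not rest on replicates. The treatment change is the mean of the KO and WT responses, which differed for Fxyd5 and Fxyd6. For treatment it gave Fxyd5 a log2 change of 1.08 (SE 0.256, adjusted p = 0.0261) and Fxyd6 one of 1.0 (SE 0.236, adjusted p = 0.0241). Both genes were higher in each of the 2 isoproterenol libraries than in the saline library of the same genotype. These 2 of the 6 members passed as higher and 0 as lower, beside 1.69% of tested genes higher and 0.881% lower. The calls ended with TMM-scaled values (limma adjusted p = 0.268 for both), with the edgeR quasi-likelihood test (adjusted p = 0.171 for Fxyd5 and 0.18 for Fxyd6) and with DESeq2 (adjusted p = 0.0578 and 0.064). Atp1b1 had a treatment change of 0.52 (SE 0.166, limma adjusted p = 0.118). For genotype limma called 0 of the 6 members (adjusted p = 1 for each), beside 0.0979% of tested genes. Of the 6, 2 (Fxyd5 and Fxyd6) had an unadjusted limma p under 0.05, beside 586 of the 14301 tested genes. The genotype fit in edgeR and in DESeq2 likewise called 0 of the 6, with 0 at an unadjusted p under 0.05. Of the 14301 tested genes, 519 in edgeR and 189 in DESeq2 had an unadjusted p under 0.05.

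Levels of different genes were set side by side as RPKM, the CPM divided by the annotated exon length in kilobases. Atp1b1 ranked first in the isoproterenol libraries, at 127 RPKM (125 to 130.4) in KO and 104 RPKM (102 to 107) in WT. In those libraries Fxyd1 came second, at 88 RPKM in KO and 88.6 RPKM in WT. In the saline libraries the order of these genes was turned, with Fxyd1 at 93.5 RPKM in KO and 88.3 RPKM in WT, and Atp1b1 at 79.7 RPKM in KO and 80.9 RPKM in WT. Atp1b3 had rank 3 in each library, at 22.9 to 32.2 RPKM. Fxyd6, Fxyd5 and Atp1b2 followed, between 3.65 and 22.3 RPKM, and Fxyd3 was last at no more than 0.0322 RPKM. The only neighbours in the order whose counting intervals overlapped were Fxyd6 and Atp1b2 in WT isoproterenol, at 9.55 RPKM (8.91 to 10.2) and 8.55 RPKM (7.94 to 9.2). The order rests on the length used: with the length of the principal transcript, Fxyd1 was first in all 4 libraries, at 310.1 and 329.7 RPKM in the KO isoproterenol and KO saline libraries and 312 and 311 RPKM in the WT isoproterenol and WT saline libraries. With that length Fxyd6 (51.2 RPKM) and Fxyd5 (46.6 RPKM) also stood above Atp1b3 (38.6 RPKM) in KO isoproterenol, and Atp1b2 was below Fxyd5 in all 4 libraries. The intervals of Fxyd5 and Atp1b2 overlapped, however, in KO saline (11.7 to 14.5 and 11 to 12.6 RPKM) and in WT saline (12.9 to 15.6 and 12 to 13.7 RPKM). Those of Fxyd6 and Fxyd5 overlapped in KO isoproterenol and in KO saline (14.4 to 16.9 and 11.7 to 14.5 RPKM), and met at 20.5 RPKM in WT isoproterenol.

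Within the FXYD members, phospholemman held a smaller share in KO isoproterenol than elsewhere. Fxyd1 made up 71.4% (70.3 to 72.4) of the reads per length of the 4 genes in KO isoproterenol and 89.9% (89.3 to 90.6) in KO saline. The share was 85.7% (84.9 to 86.5) in WT isoproterenol and 88.4% (87.8 to 89.1) in WT saline, with exact binomial intervals from the read counts. Fxyd6 took 18.1% in KO isoproterenol and 6.55% in KO saline, against 9.24% in WT isoproterenol and 7.55% in WT saline. Fxyd5 took 10.6% in KO isoproterenol and 3.51% in KO saline, against 5.07% in WT isoproterenol and 3.98% in WT saline. No 2 of the 4 intervals of Fxyd1 overlap, and the share in KO isoproterenol is the lowest. A share within a library does not depend on the scaling between libraries.

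Among the beta subunits the shares moved less, and both isoproterenol libraries moved the same way. Atp1b1 made up 75.9% (75 to 76.8) in KO isoproterenol and 71.2% (70.2 to 72.2) in KO saline, against 76.4% (75.4 to 77.3) in WT isoproterenol and 71.8% (70.8 to 72.7) in WT saline. The intervals of the isoproterenol libraries overlap each other, as do those of the saline libraries, and the isoproterenol intervals lie above the saline ones. Atp1b2 held 4.89% in KO isoproterenol and 7.32% in KO saline, against 6.28% in WT isoproterenol and 7.9% in WT saline. Atp1b3 held 19.2% in KO isoproterenol and 21.5% in KO saline, against 17.3% in WT isoproterenol and 20.3% in WT saline.

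**Figure D4:**
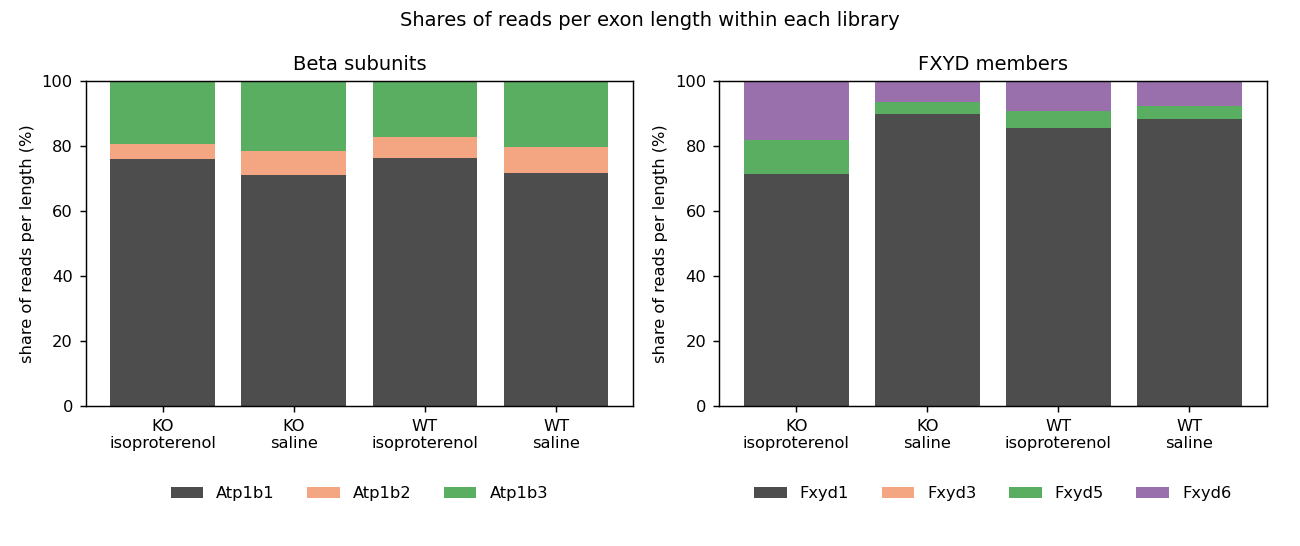
Share of reads per exon length (percent, linear axis) of each gene among the 3 beta subunits (left) and the 4 FXYD members (right) in the KO isoproterenol, KO saline, WT isoproterenol and WT saline libraries. Fxyd1 falls to 71.4% in KO isoproterenol, against 85.7% to 89.9% in the other libraries. Fxyd3 is too low to be seen.

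Relative to Atp1b1, phospholemman was lower in both isoproterenol libraries. There were 0.49 reads of Fxyd1 (0.47 to 0.51) for each read of Atp1b1 in KO isoproterenol and 0.832 (0.8 to 0.865) in KO saline, against 0.604 (0.581 to 0.628) in WT isoproterenol and 0.774 (0.746 to 0.804) in WT saline. Both isoproterenol libraries lay below both saline libraries. Against the 8 cardiomyocyte markers, Fxyd1 had no common direction. Its reads per marker read were higher in KO isoproterenol than in KO saline, with intervals apart, for 4 markers (Myh6, Tnni3, Myl2 and Pln) and lower for the other 4 (Tnnt2, Actc1, Ryr2 and Ttn). Per read of the myosin light chain gene Myl2, Fxyd1 had 0.0418 in KO isoproterenol and 0.024 in KO saline, against 0.0292 in WT isoproterenol and 0.0239 in WT saline. Per read of the troponin gene Tnnt2 it had 0.0256 in KO isoproterenol and 0.0275 in KO saline, against 0.0249 in WT isoproterenol and 0.0269 in WT saline. Atp1b1, by contrast, was higher relative to all 8 markers in KO isoproterenol than in KO saline and in WT isoproterenol than in WT saline, with intervals apart. Per read of Tnnt2, Atp1b1 was at 0.0523 in KO isoproterenol and 0.033 in KO saline, against 0.0412 in WT isoproterenol and 0.0348 in WT saline.

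The other pump family genes reported here were low in these ventricles. Of these 8 genes, 2 were tested (Fxyd2 and Fxyd7), and 0 of the 2 were called in any of the 4 comparisons of libraries or for the difference of responses. Over all tested genes, 0.273% to 7.09% were called higher and 0.217% to 4.22% lower in these. Few reads left wide intervals, such as 0.349 to 1.82 for Fxyd7 in KO isoproterenol over KO saline, so a call was hard to reach. Fxyd2 and Fxyd7 were at or below 1.3 CPM in every library. The alpha subunit of the testis, Atp1a4, the muscle protein gene Atp1b4, Fxyd4 and the proton pump genes Atp4a, Atp4b and Atp12a had at most 2 reads in a library.

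Of 17 listed kinases, phosphatases, anchoring proteins and other partners of the pump, 14 were tested. In KO isoproterenol against KO saline 0 of the 14 were called higher and 1 lower, a share close to that of all tested genes (7.09% higher and 4.22% lower). In the other comparisons 0 were called, beside 0.273% to 4.2% of tested genes higher and 0.217% to 1.8% lower. The log2 ratios of the 14 in the KO pair ranged from -0.78 (Prkce) to 0.65 (Src, a tyrosine kinase, 1.57-fold, 1.25 to 1.98), and their differences of responses from -0.64 to 0.57. The gene called was Prkce, a protein kinase C isoform, at 27.6 CPM in KO isoproterenol and 41.8 CPM in KO saline, against 34.1 CPM in WT isoproterenol and 39.8 CPM in WT saline. It was 1.72-fold lower (1.54 to 1.91) in KO isoproterenol than in KO saline.

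Of the 9 other genes of cardiac sodium transport reported here, all tested, 0 were called higher and 1 lower in KO isoproterenol against KO saline. Over all tested genes, 7.09% were called higher and 4.22% lower in that pair. The gene called was Scn4b, a beta subunit of the sodium channel, at 9.54 CPM in KO isoproterenol and 83.6 CPM in KO saline, against 16.1 CPM in WT isoproterenol and 44.6 CPM in WT saline. It was 9.92-fold lower (8.53 to 11.7) in KO isoproterenol than in KO saline and 2.62-fold lower (2.32 to 2.97) in WT isoproterenol than in WT saline. In WT isoproterenol against WT saline it was the 1 gene of the list called lower, with 0 higher (all tested genes: 0.797% lower, 0.86% higher). KO saline against WT saline had it as the 1 called higher, with 0 lower (all tested genes: 0.273% higher, 0.217% lower). In KO isoproterenol against WT isoproterenol it was again the 1 called lower, with 0 higher (all tested genes: 1.8% lower, 4.2% higher). The sodium-calcium exchanger Slc8a1 passed the rule in none of these 4 comparisons.

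Slc8a1 was, however, among the genes whose pattern was nearest to that of Atp1b1. Likeness was measured as the distance between the log2 ratios of the KO isoproterenol, KO saline and WT isoproterenol libraries to WT saline, over 10442 genes that averaged 100 reads or more. For Atp1b1 the nearest were Rpe, a pentose phosphate enzyme (distance 0.031), Slc8a1 (0.040) and Kcnq1, a potassium channel (0.055). Slc8a1 was at 229 CPM in KO isoproterenol and 143 CPM in KO saline, against 191 CPM in WT isoproterenol and 148 CPM in WT saline. Atp1b1 had 1.72 reads per Slc8a1 read in KO isoproterenol and 1.72 in KO saline, against 1.68 in WT isoproterenol and 1.69 in WT saline, all with overlapping intervals. Within a distance of 0.25 there were 244 genes for Atp1b1.

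For Fxyd5 the nearest patterns were those of Emilin1, a glycoprotein of elastic fibres (distance 0.036), Igf1, a growth factor (0.060), and Fam198b (0.106). For Fxyd6 they were Igfbp7, a secreted binding protein (0.085), Mxra8, a membrane protein (0.098), and Pqlc3 (0.101). Few genes were close to either, with 31 of 10442 within 0.25 of Fxyd5 and 51 within 0.25 of Fxyd6. The other members had patterns near no change that many genes share. For Atp1b2, the nearest were Pogz, Deb1 and Tap2 with 2469 genes within 0.25, and for Atp1b3 they were Csnk1g3, Lars2 and Pik3c2a with 1280. For Fxyd1 they were Rbm33, Ube2r2 and Adh5, with 2267 genes within 0.25.

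Like Fxyd5 and Fxyd6, the marker sums of some other cell types were highest in KO isoproterenol. In the WT pair the fibroblast sum was higher with isoproterenol, and the other sums given here were close to or below that of saline. The 8 fibroblast markers summed to 6949 CPM in KO isoproterenol and 1116 CPM in KO saline, against 2441 CPM in WT isoproterenol and 1379 CPM in WT saline. Of these, 5 of 8 were called higher in the KO pair and 4 of 8 in the WT pair, and none was at 0. Over all tested genes, 7.09% were called higher in the KO pair and 0.86% in the WT pair, for this list and the next ones. The 8 macrophage markers summed to 439 CPM in KO isoproterenol and 220.2 CPM in KO saline, against 224 CPM in WT isoproterenol and 244 CPM in WT saline, with 5 of 8 higher in the KO pair and 1 of 8 in the WT pair. The 8 epithelial and mesothelial markers summed to 22.6 CPM in KO isoproterenol and 9.41 CPM in KO saline, against 11 CPM in WT isoproterenol and 11 CPM in WT saline. Of the 5 tested, 2 were called higher in the KO pair (Krt18 and Msln), and the epithelial marker Epcam had at most 1 read per library. The 8 Schwann cell and neural markers summed to 40.5 CPM in KO isoproterenol and 20.4 CPM in KO saline, against 24.5 CPM in WT isoproterenol and 24.2 CPM in WT saline. Ncam1 alone was called in the KO pair among the 7 tested, at 20.9 CPM in KO isoproterenol and 2.74 CPM in KO saline. Of the 7, 3 had a ratio above 1 in the KO pair, and the median log2 ratio was -0.01. The part of these cells in the levels of Fxyd5 and Fxyd6 was not tested.

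The proportion of both genes to single markers depended on the marker. Fxyd5 had 0.712 reads (0.656 to 0.772) per read of Pdgfra, a receptor of fibroblasts, in KO isoproterenol and 0.327 (0.289 to 0.369) in KO saline, against 0.442 in WT isoproterenol and 0.351 in WT saline. Per read of the collagen gene Col1a1 it had 0.0334 (0.0314 to 0.0356) in KO isoproterenol and 0.116 (0.104 to 0.13) in KO saline, against 0.0517 in WT isoproterenol and 0.0841 in WT saline. Over all 8 fibroblast markers, the proportion of Fxyd5 in KO isoproterenol was above that in KO saline for 4 (Pdgfra, Dcn, Tcf21 and Ddr2), below it for 3 (Col1a1, Col3a1 and Mfap5) and overlapping for Lum. For Fxyd6 it was above for the same 4 and below for the other 4. Per read of the macrophage gene Cd68, Fxyd6 had 2.69 (2.46 to 2.95) in KO isoproterenol and 2.42 (2.1 to 2.81) in KO saline, against 2.99 (2.6 to 3.44) in WT isoproterenol and 2.62 (2.29 to 3) in WT saline, and all of these intervals overlap. Over the 8 macrophage markers, however, both Fxyd5 and Fxyd6 were higher in KO isoproterenol than in KO saline relative to 4 (Csf1r, Cd163, Mrc1 and C1qa), lower relative to Lgals3 and overlapping for 3 (Adgre1, Cd68 and Fcgr1). Relative to Adgre1, Fxyd6 had 1.83 reads (1.69 to 1.98) in KO isoproterenol and 1.61 (1.42 to 1.83) in KO saline, against 2.11 (1.86 to 2.38) in WT isoproterenol and 1.4 (1.26 to 1.57) in WT saline. Of the 8 cardiomyocyte markers, 3 were called lower and 0 higher in KO isoproterenol against KO saline, and 1 had a TMM-scaled ratio above 1. In that pair 4.22% of all tested genes were called lower and 7.09% higher. In deposited CPM, however, Tnnt2, Actc1, Ryr2 and Ttn were higher in KO isoproterenol than in KO saline. In the WT pair 0 of the 8 were called and 5 had a ratio above 1, beside 0.797% of tested genes lower and 0.86% higher. The cardiomyocyte markers summed to 58402 CPM in KO isoproterenol and 69878 CPM in KO saline, against 66902 CPM in WT isoproterenol and 70547 CPM in WT saline. The 8 endothelial markers, of which 0 were called in the KO pair, summed to 1096 CPM in KO isoproterenol and 1116 CPM in KO saline, against 1048 CPM in WT isoproterenol and 1168 CPM in WT saline.

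**Figure D5:**
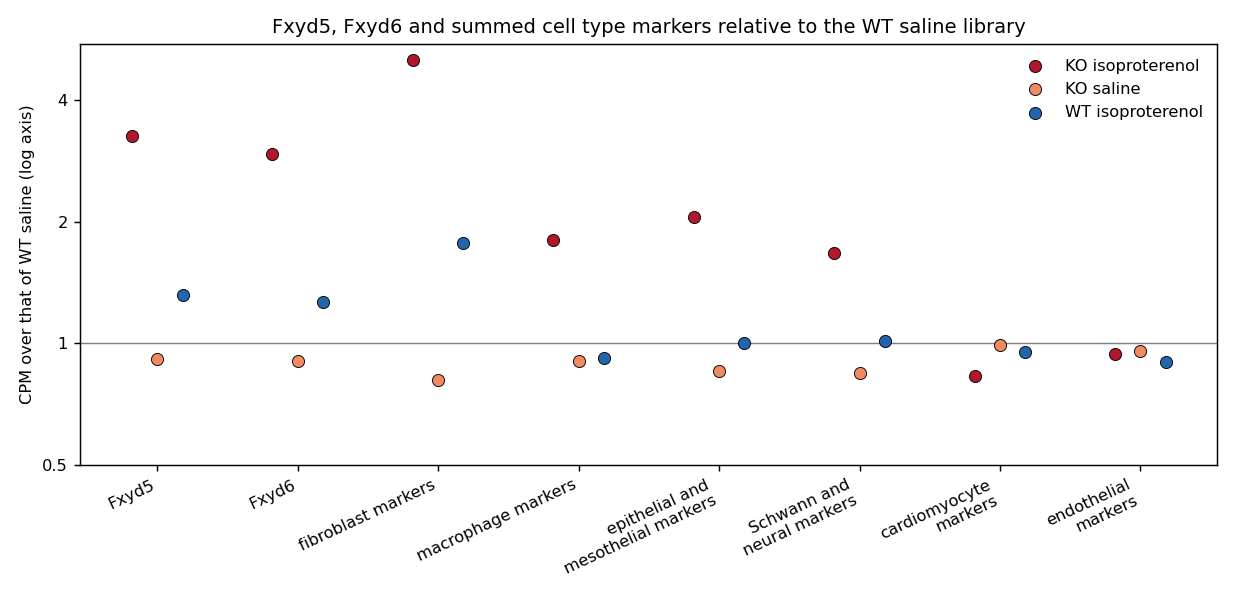
CPM of Fxyd5, of Fxyd6 and of summed marker lists relative to the WT saline library (log axis, WT saline at 1), for the KO isoproterenol, KO saline and WT isoproterenol libraries. The summed fibroblast markers lie above Fxyd5 and Fxyd6 in KO isoproterenol, at 6949 CPM, of which Col1a1 and Col3a1 give 1634 and 3815 CPM. The summed cardiomyocyte and endothelial markers stay close to 1.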

How the data were processed

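Poly(A) RNA libraries from mouse ventricles were prepared with a stranded kit, per the labels' protocols. The authors deposited CPM values for each gene, made from reads counted with HTSeq on GRCm38.p4 (mm10), per the submitters' processing notes. The sources used here give no aligner, annotation release or strand setting. Of the columns, 2 name isoproterenol, and the 2 that name only a genotype were assigned to saline by exclusion.

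Every CPM value above 0 (100%) was a whole multiple of the value of 1 read within 0.01 reads, so reads were recovered. Ratios of recovered reads, with 0.5 added, were scaled by TMM (edgeR 4.0.16) and given exact conditional (Clopper-Pearson) 95% intervals. Without molecular identifiers, reads are not independent molecules, so all intervals and the floor of 3 reads behind a count of 0 cover counting error only. The main test of treatment and of genotype was limma 3.58.1 on log2(CPM + 1), without scaling, with Benjamini-Hochberg adjustment at 0.05. On recovered reads, the quasi-likelihood test of edgeR called 22 genes by treatment and 3 by genotype, and DESeq2 1.42.0 called 174 and 13. The additive fits and the intervals of ratios and of the difference of responses were run on simulated data. For the intervals these were Poisson counts scaled by total counts, not by TMM. The shares, pattern distances and sequence matches were not simulated. Exon lengths came from GENCODE M21, promoters from RefSeq (GRCm38.p6).

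Alternatives were the scaling, the fold threshold, the filter, the pseudocount, the test and the gene length. The members, the gene lists and the tests were chosen with earlier results of these data known. Named genes are all members, listed genes of the pump family, listed regulators and transport genes that were called, the nearest annotated neighbours where they bear on a member, and the 3 nearest patterns per member. Single marker genes and overlapping genes were chosen for mention after their values were seen. A few listed genes are not reported here.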

Additional observations from a re-analysis of the deposited data

Results flagged for a closer look

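Fxyd1 responded to isoproterenol in opposite directions in the genotypes, each beyond counting error. Its log2 ratio was -0.27 in KO and 0.08 in WT, a difference of -0.35 (-0.44 to -0.27). With total-count scaling the ratios were -0.09 in KO and 0.00 in WT, and the difference was -0.09 (-0.18 to -0.01). With 1 library per group this difference was not tested.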

How the results depend on the processing

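No paired analysis was possible because each group holds 1 library, and for the same reason no library could be left out. In the order KO isoproterenol over KO saline, WT isoproterenol over WT saline, KO saline over WT saline, KO isoproterenol over WT isoproterenol, and the difference of responses, an interval beyond 1 called 7836, 4494, 3059, 6439 and 5624 genes, and one beyond 2-fold called 701, 84, 31, 283 and 265. In place of 1.5-fold, which called 1618, 237, 70, 858 and 796, these limits call more or fewer genes by construction. Treatment was called for 368 genes by limma, 647 with a pseudocount of 0.1, 965 with no filter, 1 with TMM scaling, 22 by edgeR and 174 by DESeq2. Genotype was called for 14, 60, 195, 0, 3 and 13 genes in that order, and with TMM scaling 412 genes had an unadjusted p under 0.05. Counted as reads, Atp1b1 held 78.1% of the beta subunits in KO isoproterenol, 73% in KO saline, 77.8% in WT isoproterenol and 73.2% in WT saline. Fxyd1 then held 56.8%, 82.5%, 76% and 80.2% of the FXYD members in these libraries. With the length of the principal transcript, chosen after seeing the data, Atp1b1 held 70.1% in KO saline, 75.4% in WT isoproterenol and 70.6% in WT saline. Fxyd1 held 76%, 92%, 88.5% and 90.8% in the 4 libraries, and its rank became 1 in KO isoproterenol and in WT isoproterenol. Under each of these length choices Fxyd1 had its lowest share in KO isoproterenol. No result of a member reversed direction past its threshold. DESeq2 size factors, which shifted the log2 ratios by at most 0.003 from TMM, left all 30 calls of members as they were. Removing the filter left all 42, but it cannot change a ratio or its interval. Only the calls of the additive fits could have moved with the filter. Total-count scaling changed 1 of 30, Atp1b1 in the KO pair. Depth limits Fxyd3, which had at most 4 reads in a library.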

Other observations

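Calls in the other marker lists in KO isoproterenol against KO saline are given here beside 7.09% of all tested genes higher and 4.22% lower. Of the 8 smooth muscle and pericyte markers 2 were called higher and 1 lower, of the 6 lymphocyte markers tested 1 was higher (Ptprc), and of the 4 adipocyte and 5 erythroid markers tested 0 were called. Of the 5 atrial markers 2 (Myl4 and Bmp10) were higher in KO isoproterenol than in KO saline. Both were lower in KO saline than in WT saline, and their part in the levels of the pump genes was not tested.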
